A study of Homo sapiens with 12 samples.

Results

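The proteasome subunit genes were followed here in HEK293T cells, a human embryonic kidney line that expresses the large T antigen. They were taken as every gene on the assembled chromosomes whose symbol consists of PSM, 1 letter from A to G and a number, which gave 48 genes of 67053 gene loci listed. Cells received 2 µg of a plasmid whose GFP reporter carried no added trigger (GFP), a BCL2L11 trigger or a TRIM9 trigger in its 3′ untranslated region. Such a trigger pairs extensively with a microRNA and leads to its degradation, and the study asked whether the triggers removed miR-221 and miR-222 (BCL2L11) or miR-218 (TRIM9). Poly-A RNA was collected 48 h after transfection, for which the labels name PEI and lipofectamine without assigning either to a sample. All 3 groups had 2 libraries, described by the submitters as biological replicates, and every group carried a GFP plasmid in the same line, so no untransfected cells enter a comparison.

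The proteasome degrades proteins tagged with ubiquitin. Its 20S core is a barrel of alpha rings, which gate the entry, around beta rings, which hold the cutting sites, and a 19S regulatory particle binds the tagged protein, removes the ubiquitin and threads the chain inward with a ring of ATPases. Other caps, the activators, open the core without using ubiquitin, an inhibitor and dedicated chaperones complete the set, and interferon replaces the cutting subunits by the immunoproteasome forms. The transcription factor NFE2L1, also called NRF1, raises many of these genes together when proteasome activity falls short.

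Levels are FPKM, fragments per kilobase of transcript scaled to the mapped fragments of the library, summed over the transcripts of a gene. The scaling by length is meant to let genes of different length be compared. Replicate 1 of every group has the title numbers 1 to 3 and is called library set 1, and replicate 2 has 4 to 6 and is called set 2. The labels give no meaning to the sets. Gene levels stood apart between them, and 32.9% of 15183 genes tested passed for the sets at an adjusted p of 0.05. The libraries held 83584 to 110534 transcripts above 0, and 1 FPKM stood for a mean read depth of 4.11 to 5.34 per base. Summed over all genes, FPKM was 441892 to 510837 in set 1 and 376984 to 389639 in set 2. BCL2L11 was listed at 11480 and 11270 FPKM in its own libraries and at 3.95 to 6.32 elsewhere, and TRIM9 at 5297 and 3948 against 1.21 to 2.93. Of 5 HEK293T markers 4 were at 1 FPKM or more in every library and PAX2 was below 1 in all, while all 5 blood markers were below 1.

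Of the 48 proteasome genes 43 passed the filter of at least 1 FPKM in at least 2 libraries, and all 43 were above 1 in every library, the lowest value being 6.37. The constitutive 20S core had the highest levels. PSMB4, a structural beta subunit on chromosome 1 (hg38, chr1:151399560-151401937), led all 48 genes. Its FPKM was 415 in GFP, 383 in BCL2L11 and 445 in TRIM9 libraries of set 1, and 244, 243 and 258 in the same order in set 2. The 3 libraries of set 1 were all above the 3 of set 2. The lowest of the beta subunits was PSMB2 (chr1:35599541-35641526), with 39.1, 45.8 and 51.5 in set 1 and 43.4, 44.2 and 47.2 in set 2. Its libraries overlapped between the sets.

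Among the cutting subunits PSMB7, which carries the trypsin-like site, was highest, with 231 in GFP, 306 in BCL2L11 and 268 in TRIM9 libraries of set 1 and 166, 180 and 147 in set 2. PSMB6, which carries the caspase-like site (chr17:4796144-4798502), stood at 211, 218 and 178 in set 1 and at 87.8, 86.4 and 72.3 in set 2. PSMB5, which carries the chymotrypsin-like site, stood at 142, 187 and 149 and at 87.4, 98.2 and 88.6. For all 3 the sets did not overlap, and the BCL2L11 library was highest for all 3 in set 1 and for PSMB7 and PSMB5 in set 2.

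In the alpha ring PSMA7 was highest, with 277, 309 and 333 FPKM in GFP, BCL2L11 and TRIM9 of set 1 and 208, 198 and 208 in set 2. PSMA5 was lowest, with 44.4, 43.5 and 39.0 and then 30.7, 28.7 and 28.9. The other 5 alpha genes had means over the 6 libraries from 119 (PSMA1) to 139 (PSMA6). Neighbours in that order did not differ beyond their spread over libraries, since PSMA6 alone ranged from 90.4 to 213.

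Of the immunoproteasome subunits only PSMB10, the counterpart of PSMB7, was above 1 FPKM. It stood at 20.6, 29.2 and 19.4 in set 1 and 9.95, 10.04 and 9.24 in set 2, and its mean of 16.4 compares with 216 for PSMB7. PSMB8, the counterpart of PSMB5, was at most 0.0381 in any library, and PSMB9, the counterpart of PSMB6, at most 0.0773. These neighbours overlap by 544 bases on chromosome 6 and are also listed on alternate sequences of that region. Summed over 8 loci each, PSMB8 reached at most 0.357 and PSMB9 at most 0.611. The tissue-specific core genes were at or near 0. PSMA8, known from testis, was listed at 0 in all 6 libraries, and PSMB11, known from thymus, at 0 in 5 and at 0.0308 in the BCL2L11 library of set 1.

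In the regulatory particle the highest ATPase was PSMC3, with 139, 170 and 136 FPKM in GFP, BCL2L11 and TRIM9 of set 1 and 87.4, 75.8 and 66.2 in set 2. The lowest was PSMC4, with 49.7, 52.2 and 45.7 and then 37.8, 32.9 and 30.2. Of the 11 non-ATPase subunits PSMD4, a ubiquitin receptor, led with 178, 242 and 211 in set 1 and 129, 127 and 120 in set 2. PSMD12, a lid subunit, was lowest, with 43.1, 29.2 and 25.8 in set 1 and 47.9, 50.8 and 44.9 in set 2. Its 3 libraries of set 2 were all above those of set 1, the opposite of PSMC3, PSMC4 and PSMD4.

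The activators had lower median levels than either particle, though PSME3 stood above several subunits of both. PSME3, the nuclear activator, was highest among them with 55.0, 51.5 and 56.3 in set 1 and 68.6, 64.3 and 70.7 in set 2. PSME4, a large single-chain activator, stood at 15.9, 11.1 and 13.1 and then 18.0, 18.7 and 20.8. PSME1 and PSME2 form a ring together and are induced by interferon. PSME1 was lowest, with 15.4, 11.6 and 13.7 and then 6.77, 6.75 and 9.93, and PSME2 had 18.95, 18.6 and 15.7 and then 8.11, 6.37 and 8.73. So PSME3 and PSME4 were higher in set 2 and PSME1 and PSME2 were lower there, without overlap in each case. The inhibitor PSMF1 ranged from 16.9 to 28.1.

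Among the assembly chaperones PSMD10, which helps build the ATPase ring and is also called gankyrin, was highest at 72.7 to 102 FPKM. PSMD5, a partner of PSMD10 in that step, was lowest of this group at 0.333 to 0.818 and was not tested. PSMG4, a chaperone of the core, was the lowest one tested, with 17.3, 22.2 and 16.8 in set 1 and 9.97, 10.3 and 6.39 in set 2. PSMB3, PSMC4, PSME1 and PSME2 are also listed on an alternate sequence at the same or nearly the same value. Their levels are thus uncertain by a factor close to the number of loci, and over both loci PSMB3, for example, summed to 150 to 317. PSMC4 summed to 60.3 to 104 and PSME1 to 13.5 to 30.8, so their places as lowest of their roles hold for the chromosome loci alone.

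**Figure D1:**
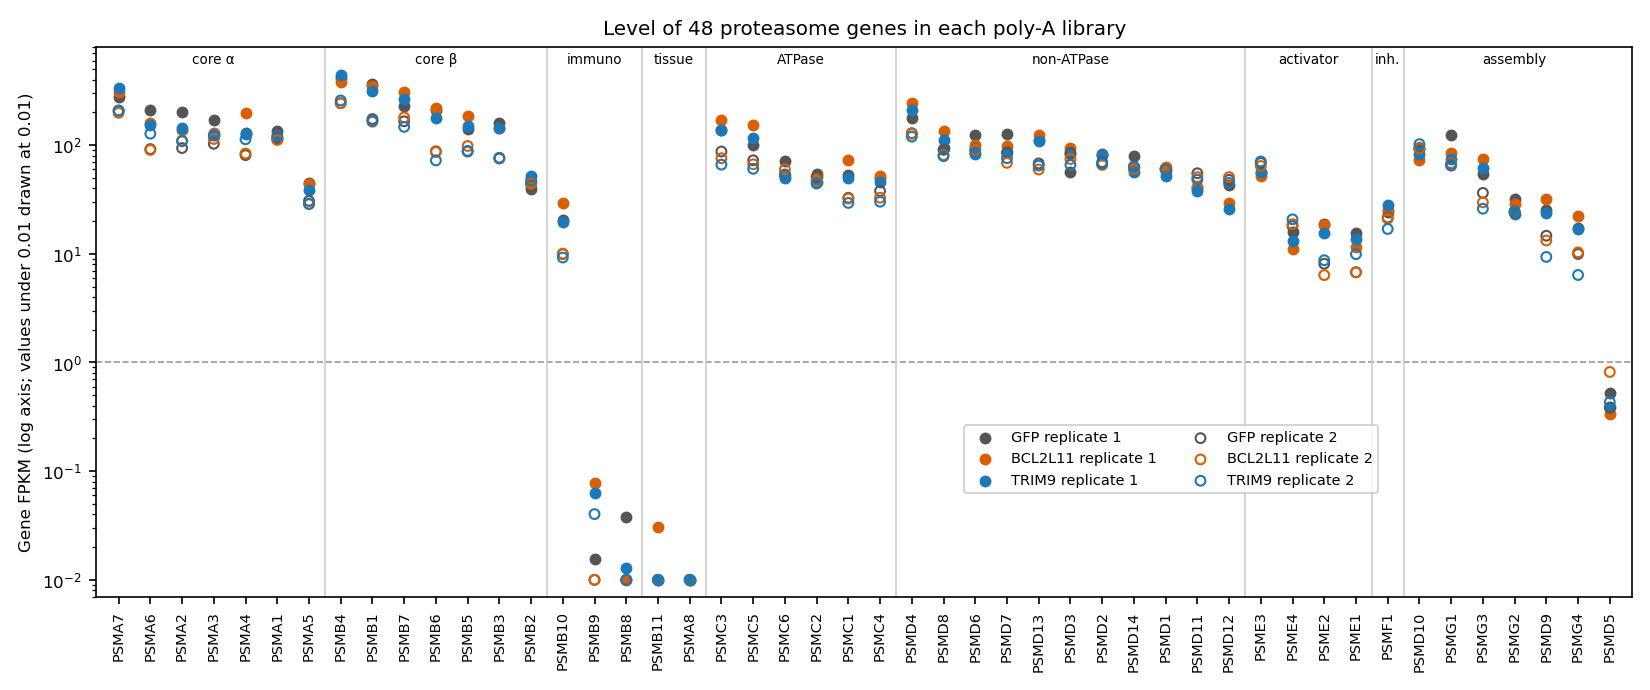
Gene FPKM of all 48 proteasome genes (log axis, values under 0.01 drawn at 0.01) by role, each point 1 poly-A library, filled for replicate 1 (set 1) and open for replicate 2 (set 2), coloured by group. PSMB4 lies highest, PSMB8, PSMB9, PSMB11, PSMA8 and PSMD5 lie under the dashed line at 1 FPKM, and for PSMB6, PSMB1 and PSMB10 all filled points lie above all open ones.

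Summed over its 14 genes, the constitutive core had 2737, 2725 and 2590 FPKM in GFP, BCL2L11 and TRIM9 of set 1 and 1601, 1628 and 1688 in set 2. The 17 genes of the regulatory particle summed to 1462, 1620 and 1384 and then 1180, 1105 and 1058. The 4 activators summed to 105, 92.8 and 98.8 and then 101, 96.2 and 110. The core and the regulatory particle were thus lower in every library of set 2 than in any of set 1, and the sums of the activators overlapped. All 48 proteasome genes together held 0.886% to 1.06% of all FPKM in set 1 and 0.800% to 0.822% in set 2.

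The mean core gene stood above the mean gene of the regulatory particle by a factor of 2.27, 2.04 and 2.27 in set 1 and 1.65, 1.79 and 1.94 in set 2. On the log2 scale the ratio was lower in set 2 by a difference of -0.29, with an exact permutation p = 0.1, two-sided. This p is the smallest that 3 against 3 libraries can give. Over all genes tested the set difference moved with transcript length (Pearson r of 0.50). Several core genes and no regulatory particle gene were under 1000 nt, and the part of length in this ratio was not tested. Between BCL2L11 and GFP the log2 ratio differed by -0.02 (exact permutation p = 1), between TRIM9 and GFP by 0.12 (exact permutation p = 1) and between the triggers by -0.13 (exact permutation p = 0.667), where 2 against 2 libraries cannot go below 0.333.

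**Figure D2:**
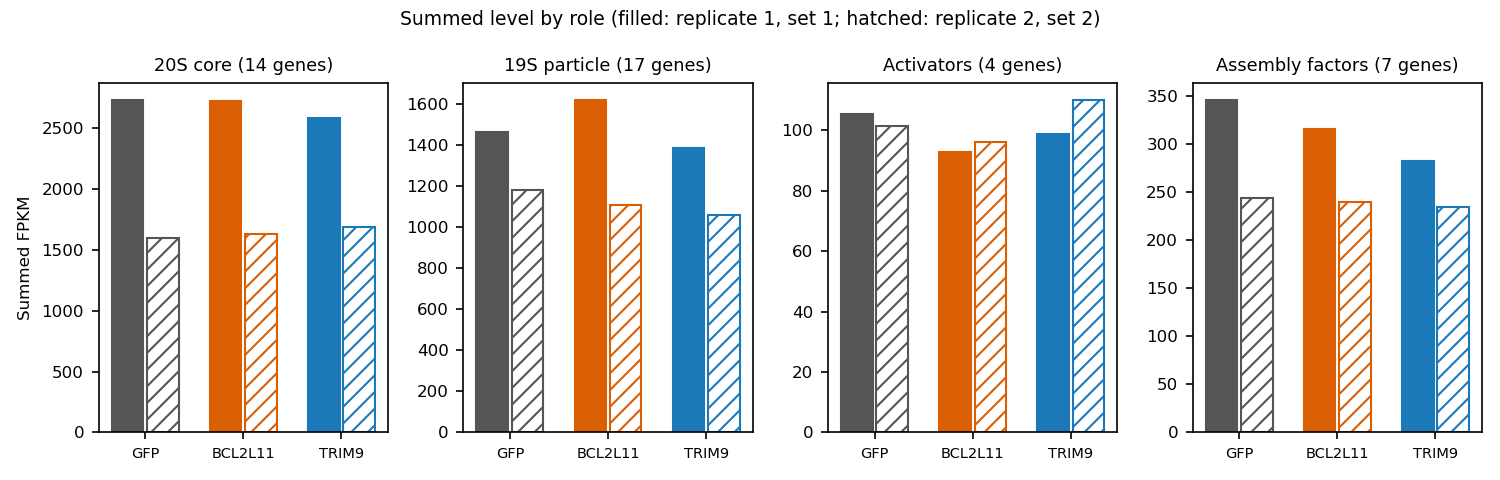
Summed FPKM of the genes of each role in each poly-A library (filled bars: replicate 1, set 1, hatched bars: replicate 2, set 2, bars start at 0). The core and the regulatory particle are lower in all 3 hatched bars, and the activators stay between 92.8 and 110 in all 6.

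The promoters of these genes are shown next because NFE2L1 binds the antioxidant response element, whose core letters are TGACNNNGC or TGAGNNNGC. RefSeq promoter windows (GRCh38.p14, from 250 bases before to 50 after the start) were found for 42 of the 48 genes. TGACNNNGC, searched on both strands, was in 13 of them, or 31.0%, and in 13.6% of 27305 promoters of all genes. TGAGNNNGC was also in 13, or 31.0%, against 18.4%. At least 1 of the pair was in 20 of 42, or 47.6%, against 29.4%, and CCAAT, the box bound by NF-Y, in 45.2% against 35.7%. These are matches of letters, not measured binding. The windows below, chosen after the values were seen, are those of 4 genes with lower levels in set 2 and 2 with higher levels there, all upstream of the RefSeq start, with the match in capitals.
PSMB3 (chr17:38752629-38752653, plus strand): ctccgtttTGACTTTGCaaccaaac
PSMD9 (chr12:121888680-121888704, plus strand): gcttccggTGACCCAGCtccgccct
PSME1 (chr14:24136100-24136124, plus strand): ggcagggcTGACCCCGCctcctcca
PSME2 (chr14:24146769-24146793, minus strand): ctggactgTGACCCAGCcagcaccg
PSMD12 (chr17:67366726-67366750, minus strand): acaaaaccTGACGCTGCaggctgga
PSME4 (chr2:53971011-53971035, plus strand, opposite to the gene): tctgctggTGACGCTGCagccgccg
The neighbours PSME1 and PSME2, whose genes lie 4394 bases apart on chromosome 14, each held a match. The matched letters TGACGCTGC were the same in PSMD12 and PSME4.

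The first comparison asked how the BCL2L11 trigger changed gene levels against GFP. None of the 43 proteasome genes tested passed (0 of 43 in limma, and 0 at an unadjusted p under 0.05). Of all 15183 genes 1 passed, or 0.00659%, and 83 had an unadjusted p under 0.05. The counts of 0 are thus not particular to the proteasome genes. On the log2 scale of FPKM plus 1 the median difference of the proteasome genes was -0.06, beside -0.08 over all genes. Of the 43, 18 were positive and 25 negative. The highest difference over all genes was 10.72, that of BCL2L11. The catalytic PSMB7, PSMB6 and PSMB5 had differences of 0.26 (SE 0.45), 0.01 (SE 0.66) and 0.28 (SE 0.46), and PSMB10 of 0.25 (SE 0.60). The lowest p among positive differences belonged to PSMD3, a lid subunit, PSMA4 and PSMB5. PSMD3 had 56.0 and 84.9 FPKM with GFP and 93.7 and 74.4 with the BCL2L11 trigger, a difference of 0.27 (SE 0.34) that was 0.73 in set 1 and -0.19 in set 2. PSMA4, an alpha subunit, had 130 and 81.0 against 198 and 83.7, a difference of 0.32 (SE 0.47). Both pairs overlapped, and PSMD3 changed direction between the sets.

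On the negative side the lowest p belonged to PSMD7, a lid subunit, PSMD14, the deubiquitinase of the lid, and PSMG1, a core chaperone. PSMD7 had 126 and 85.2 FPKM with GFP and 97.5 and 68.7 with the trigger, a difference of -0.34 (SE 0.35) that was -0.36 and -0.31 in the sets. PSMD14 had 79.3 and 63.3 against 62.9 and 60.4, a difference of -0.20 (SE 0.29). PSMG1 differed by -0.24 (SE 0.39), with -0.55 and 0.07 in the sets. Adjusted p in limma was 0.9999 for all of these. The 2 libraries per group did not overlap for 2 genes higher, PSMB2 and PSMD1, and 2 lower, PSMD14 and PSMA1, or 4.65% each, where 4.44% and 12.3% of all genes did. After rescaling by TMM, a trimmed mean over genes, the median of the proteasome genes was 0.05 in place of -0.06, so no direction holds over both scalings.

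The second comparison asked the same of the TRIM9 trigger. In limma 0 of 43 proteasome genes passed and 0 had an unadjusted p under 0.05. Of all 15183 genes 1 passed, or 0.00659%, and 175 had an unadjusted p under 0.05. The highest difference over all genes was 10.45, that of TRIM9. The median difference of the proteasome genes was -0.09, beside -0.04 over all genes, with 12 positive and 31 negative. After TMM rescaling 20 of the 43 were positive. Of the regulatory particle 14 of 17 genes were negative (11 of 17 after TMM rescaling), with a median of -0.15. Of all 15183 genes 8478 were negative. The catalytic PSMB7, PSMB6 and PSMB5 had differences of 0.02 (SE 0.45), -0.26 (SE 0.66) and 0.05 (SE 0.46), and PSMB10 of -0.09 (SE 0.60).

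Of positive differences PSMB2 had the lowest p. It stood at 39.1 and 43.4 FPKM with GFP and at 51.5 and 47.2 with the TRIM9 trigger, a difference of 0.25 (SE 0.28), with 0.39 and 0.12 in the sets and no overlap. PSMA4 (0.23, SE 0.47) and PSME1 (0.17, SE 0.45) followed. Of negative differences PSMD6, a lid subunit, had the lowest p, with 124 and 91.9 against 82.8 and 85.3, a difference of -0.34 (SE 0.31) and no overlap. PSMD12 (-0.40, SE 0.40) and PSMD7 (-0.35, SE 0.35) followed, and adjusted p in limma was 0.9999 for these 6. Libraries did not overlap for 1 gene higher, PSMB2, and 4 lower, PSMD6, PSMC6, PSMD14 and PSMC2, or 2.33% and 9.30%, where 6.66% and 11.2% of all genes did.

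Compared directly, BCL2L11 against TRIM9, 0 of 43 genes passed in limma and 0 had an unadjusted p under 0.05. Of all 15183 genes 2 passed, or 0.0132%, and 98 had an unadjusted p under 0.05. The libraries compared here also serve in the comparisons with GFP. The median was 0.10, beside -0.04 over all genes, with 29 positive and 14 negative. Of the regulatory particle 16 of 17 genes were positive, with a median of 0.14, where 6281 of all 15183 genes were positive. The count was 17 after TMM rescaling and 15 with covered bases in place of FPKM. All 4 activators were negative, with a median of -0.15, where 8902 of all 15183 genes were negative. PSMG4 had the lowest p of the positive side, with 22.2 and 10.3 FPKM in BCL2L11 and 16.8 and 6.39 in TRIM9 libraries, a difference of 0.50 (SE 0.55). The difference was 0.38 in set 1 and 0.61 in set 2, and the groups overlapped only across the sets. PSMD9, an ATPase chaperone (0.43, SE 0.57), and the ATPase PSMC1 (0.32, SE 0.49) followed.

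On the negative side stood PSME1 (-0.36, SE 0.45), PSME4 (-0.18, SE 0.37) and PSMD10 (-0.15, SE 0.31). The catalytic PSMB6, PSMB7 and PSMB5 had 0.27 (SE 0.66), 0.24 (SE 0.45) and 0.23 (SE 0.46). Adjusted p in limma was 1 throughout. Libraries did not overlap for 4 genes higher, PSMD6, PSMD1, PSMC6 and PSMC2, and 2 lower, PSMB2 and PSMA1, or 9.30% and 4.65%, where 5.72% and 8.44% of all genes did.

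The 95% interval of a difference in the trigger comparisons reached 0.65 to 1.56 to either side on the log2 scale, with a median of 0.94 over the 43 genes. This fit has no term for the library sets. With the sets as a replicate block the intervals reached 0.39 to 0.68, with a median of 0.46, and 0 genes passed in limma. At an unadjusted p under 0.05 there were 0, 0 and 1 in BCL2L11 against GFP, TRIM9 against GFP and BCL2L11 against TRIM9. That 1 was PSMG4, with a difference of 0.50 and an interval reaching 0.47 to either side. In the fit without a set term PSMB6, whose level differs most between the sets, had the widest interval. In BCL2L11 against GFP it ran from -1.54 to 1.57. Leaving out 1 library from the fit without a set term turned the sign of the median over the 43 genes in each comparison. The sets are then unequal between the groups, so the set difference of these genes enters this median. In BCL2L11 against GFP it was 0.24 without GFP replicate 1 and 0.23 without BCL2L11 replicate 2. In TRIM9 against GFP it was 0.12 without GFP replicate 1 and 0.28 without TRIM9 replicate 2, and between the triggers -0.17 without BCL2L11 replicate 1 and -0.14 without TRIM9 replicate 2.

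**Figure D3:**
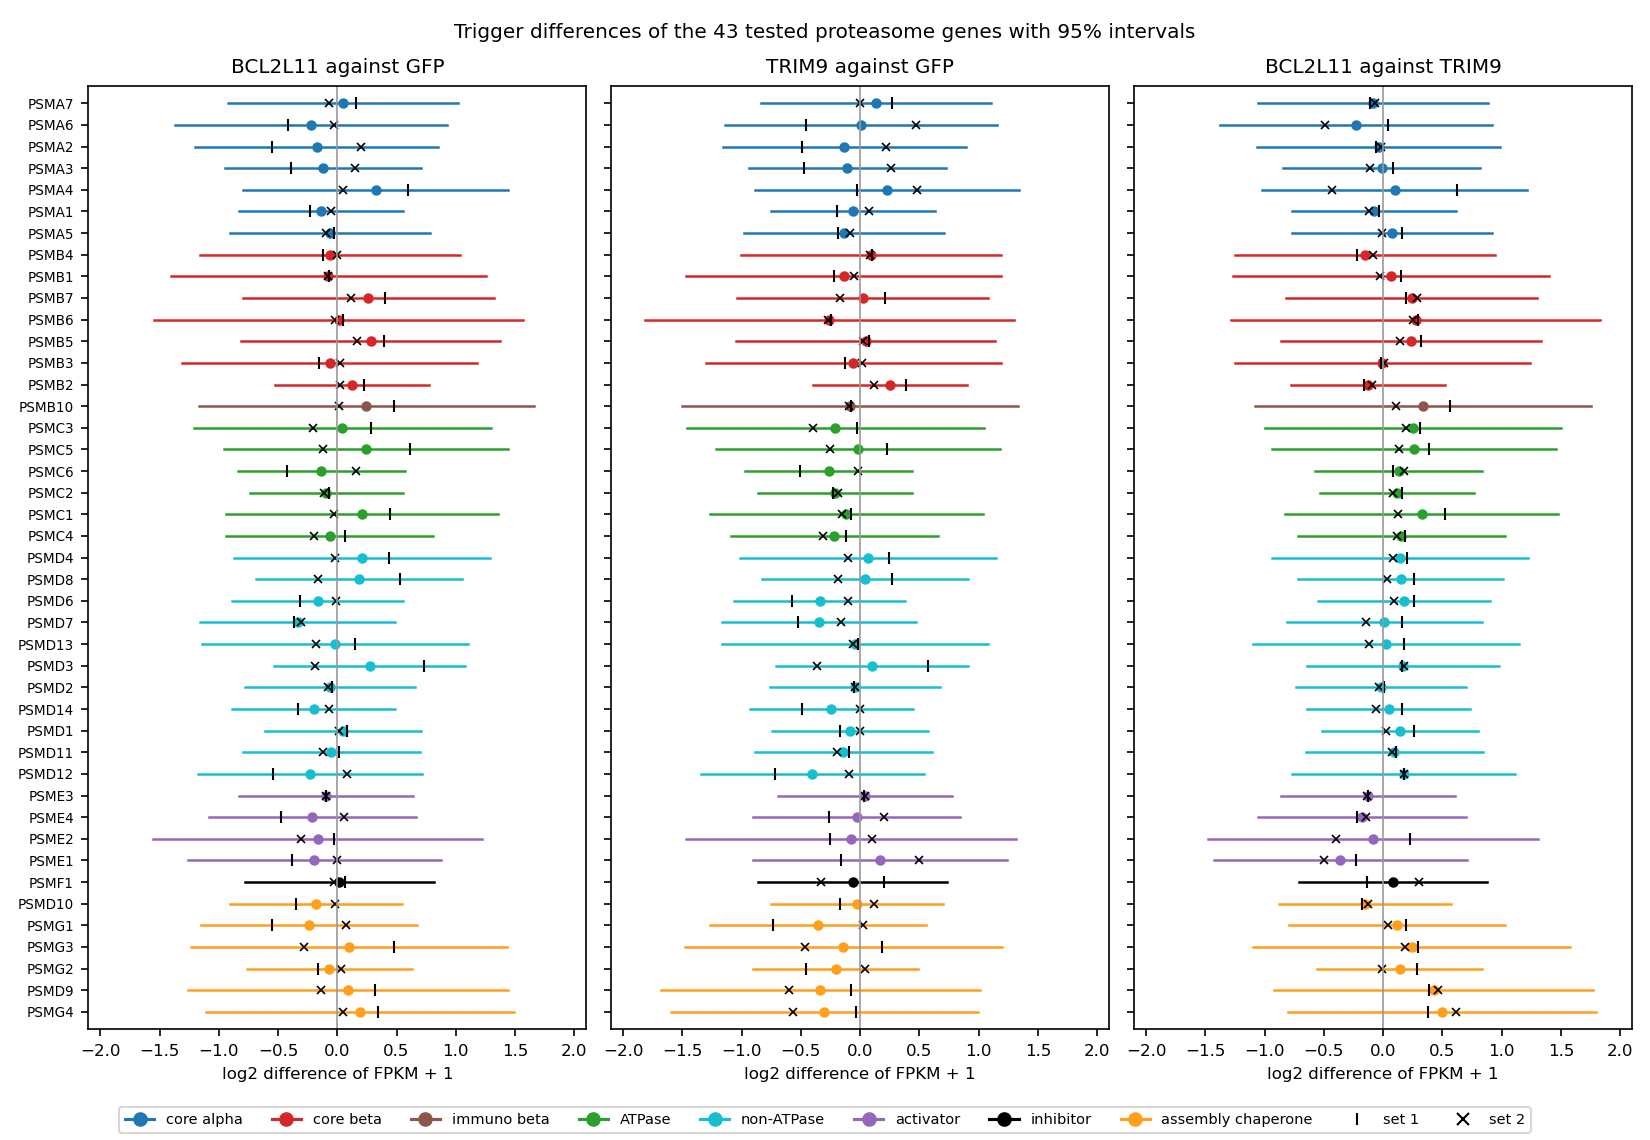
Log2 difference of FPKM plus 1 for the 43 tested proteasome genes in 3 comparisons, coloured by role, with the 95% interval from limma (bar) and the differences within set 1 (tick) and set 2 (cross). Every interval includes 0, and the intervals span -1.82 to 1.83.

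The authors' deposited gene tables gave the same comparisons with their own values. Their table for BCL2L11 listed 42 of the 48 genes, 7 with a fold change above 1 and 35 below, and 5 (PSMA3, PSMA1, PSMD6, PSMD11 and PSMD14) had a p-value under 0.05, where 3.52% of its 5930 genes did. None of the 42 had a q-value under 0.05. In the authors' deposited table PSMA3, an alpha subunit, had a log2 fold change of -0.51 and a p-value of 0.00613, and in limma its difference was -0.12. For PSMD11, a lid subunit, the authors' deposited table gave a fold of 4.37 and a p-value of 0.0258, while in limma the difference was -0.05. Its FPKM was 40.7 and 55.1 with GFP and 41.1 and 50.7 with the BCL2L11 trigger, so a rise of that size was not seen in the deposited FPKM. For TRIM9 the authors' deposited table listed 43 of the genes, 8 above and 35 below 1, and 0 had a p-value under 0.05, where 2.48% of its 6131 genes did.

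The differences between the library sets were larger than those between triggers. Fitted with a term for the groups, 21 of 43 proteasome genes were lower in set 2 and 0 were higher, where 10.3% and 22.5% of all genes passed in these directions. The median difference of the proteasome genes was -0.54 on the log2 scale of FPKM plus 1, beside 0.06 over all genes. The 3 libraries of set 2 lay below those of set 1 without overlap for 29 genes and above for 5, or 67.4% and 11.6%, where 18.2% and 31.7% of all genes did. In the GFP, BCL2L11 and TRIM9 pairs of libraries 35, 37 and 32 of the 43 differences were negative, with medians of -0.48, -0.64 and -0.42 beside 0.20, 0.04 and 0.01 over all genes. Rescaled by TMM, the median over all genes shifted from 0.06 to -0.08 and the share of calls that were lower from 31.5% to 53.1%, while 27 proteasome genes were lower and 0 higher. The sets are a split of the libraries by title number, not a condition.

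The core held 9 of these 21 calls. All 14 core genes had a negative difference (13 with covered bases in place of FPKM) and 6 of 7 fell in the beta rings and 3 of 7 in the alpha rings. PSMB6 fell most, by 1.29 on the log2 scale (SE 0.13, adjusted p = 0.0111 in limma), to 0.410 of its level, and by 1.26, 1.33 and 1.28 within GFP, BCL2L11 and TRIM9. PSMB1, a structural beta subunit with 367, 350 and 314 FPKM in set 1 and 174, 164 and 167 in set 2, fell by 1.02 (SE 0.14, adjusted p = 0.0111). PSMB3 fell by 0.96 (adjusted p = 0.0112), PSMB5 by 0.78 (0.0139), PSMB4 by 0.73 (0.015) and PSMB7 by 0.70 (0.0204). PSMB2 was the exception, with a difference of -0.01 (SE 0.14) and an interval from -0.34 to 0.33. In the alpha rings PSMA6 fell by 0.76 (adjusted p = 0.0383), PSMA7 by 0.57 (0.0299) and PSMA5 by 0.51 (0.033). PSMA4 (-0.69), PSMA2 (-0.61), PSMA3 (-0.31) and PSMA1 (-0.07) did not pass.

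PSMB10 fell by 1.14 (SE 0.16, adjusted p = 0.0112). In the regulatory particle 4 of 6 ATPases and 2 of 11 non-ATPase subunits fell. Among the ATPases the differences were -0.95 for PSMC3 (adjusted p = 0.0129), -0.87 for PSMC5 (0.0197), -0.86 for PSMC1 (0.0143) and -0.54 for PSMC4 (0.0314). PSMC2 (-0.09) and PSMC6 (-0.06) did not pass. Of the non-ATPase subunits PSMD13, a lid subunit, fell by 0.82 (adjusted p = 0.0139) and PSMD4 by 0.73 (0.02).

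The other 9 non-ATPase subunits did not pass, and their differences ran in both directions. PSMD1, the scaffold of the base, was nearly level, with 59.2, 62.8 and 52.4 FPKM in set 1 and 60.0, 60.8 and 59.8 in set 2, a difference of 0.05 (SE 0.13). PSMD12 had the highest difference of all 43 genes at 0.57 (SE 0.18, adjusted p = 0.0567), with 0.15, 0.78 and 0.78 in the GFP, BCL2L11 and TRIM9 pairs. PSMD11 followed in this group with 0.35 (SE 0.13, adjusted p = 0.0853), and its libraries did not overlap.

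The activators split into pairs. PSME2 fell by 1.11 (SE 0.17, adjusted p = 0.0117) and PSME1 by 0.74 (SE 0.17, adjusted p = 0.0251). PSME4 had a difference of 0.50 (SE 0.16, adjusted p = 0.0613) and PSME3 of 0.32 (SE 0.13, adjusted p = 0.106), neither of which passed. The assembly chaperones PSMD9, PSMG3 and PSMG4 fell by 1.07 (adjusted p = 0.0116), 1.03 (0.015) and 1.02 (0.012), while PSMG1 (-0.47), PSMG2 (-0.18) and PSMD10 (0.23) and the inhibitor PSMF1 (-0.38) did not pass.

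**Figure D4:**
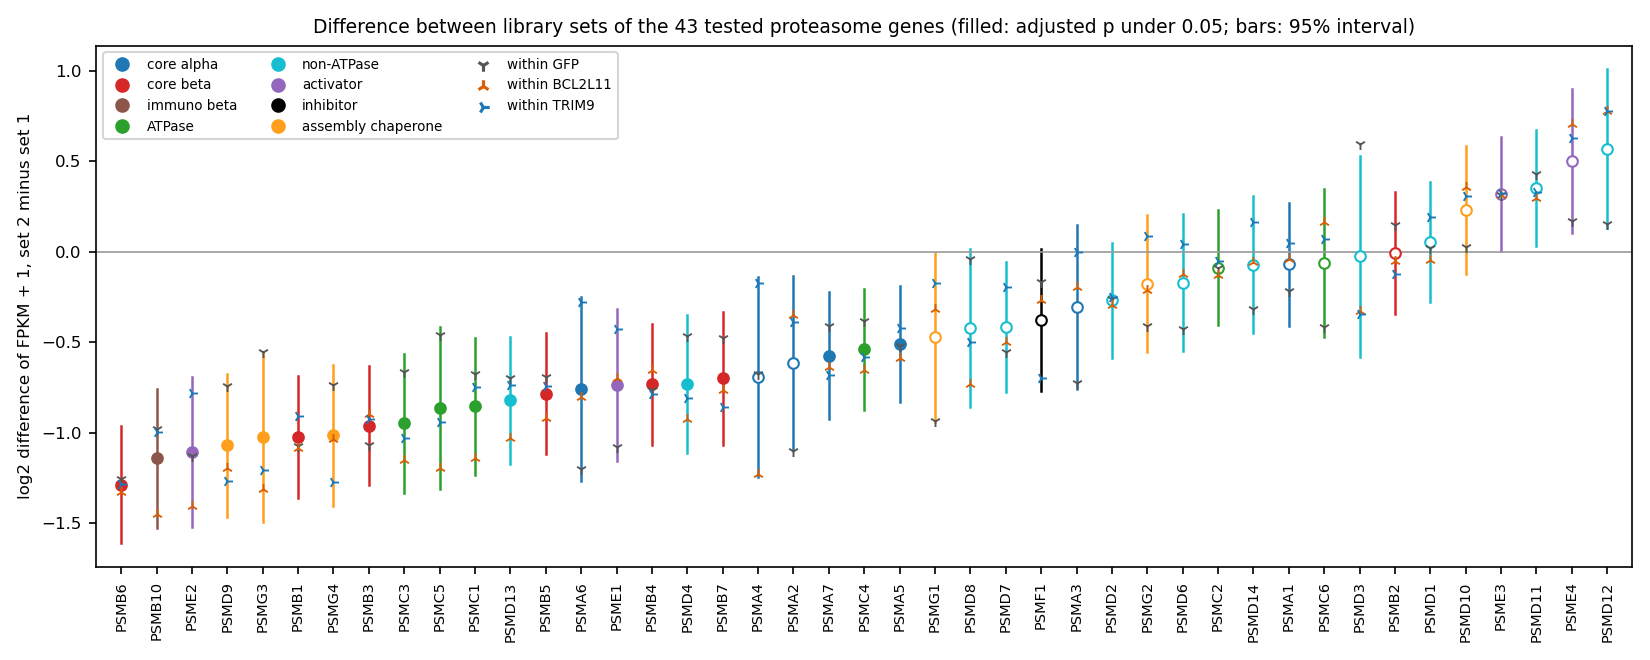
Log2 difference of FPKM plus 1, set 2 minus set 1, of the 43 tested proteasome genes in order, coloured by role, filled where the adjusted p in limma was under 0.05, with the 95% interval (bar) and the difference within each group (small marks). PSMB6 is lowest at -1.29 and PSMD12 highest at 0.57, and all 21 filled points lie below 0.

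The count of calls changed when 1 library was left out. The group term then fits the other library of that group exactly, so only the remaining groups give the set difference. The exclusion of 1 library left 25 genes called lower without GFP replicate 1 or GFP replicate 2, and 7 without either BCL2L11 replicate, 6 without TRIM9 replicate 1 and 4 without TRIM9 replicate 2. Without either GFP replicate 5 genes were also called higher, PSMD10, PSMD11, PSMD12, PSME3 and PSME4. With no group term PSMD12 and PSME4 were called higher, with a filter of 5 FPKM PSMD12, and with covered bases PSME4. With no filter on low values 0 of 47 were called in limma, 29 had an unadjusted p under 0.05, and none of all 39154 genes passed.

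Transcript length moved with the set difference. Across the 43 genes the difference and the log2 of the transcript length, weighted by FPKM, had a Pearson r of 0.64 and a Spearman rho of 0.61, and across all 15183 genes tested 0.50 and 0.58. Genes of 1 library share its depth and are not independent, so these are descriptions. Of the 10 proteasome genes under 1000 nt 9 were called lower, with a median of -0.75, beside -0.42 and 29.9% called lower over all genes of that length. From 1000 to 1500 nt 7 of 14 were called lower (median -0.67, all genes -0.38 and 26.4%). From 1500 to 2500 nt it was 3 of 8 (median -0.48, all genes -0.12 and 9.95%), and from 2500 to 4000 nt 2 of 8 (median -0.02, all genes 0.17 and 2.66%). Of the 3 genes of 4000 nt or more, PSMB2, PSMF1 and PSME4, 0 were called, beside 0.478% of all genes. In every length range the median of the proteasome genes lay below that of all genes. PSMB2, the exception in the beta rings, had a weighted length of 4418 nt against 739 to 1020 nt for the other 6, and PSMC1 (3769 nt) and PSMA5 (3619 nt) were long members that fell. The part of length in the set difference was not tested.

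**Figure D5:**
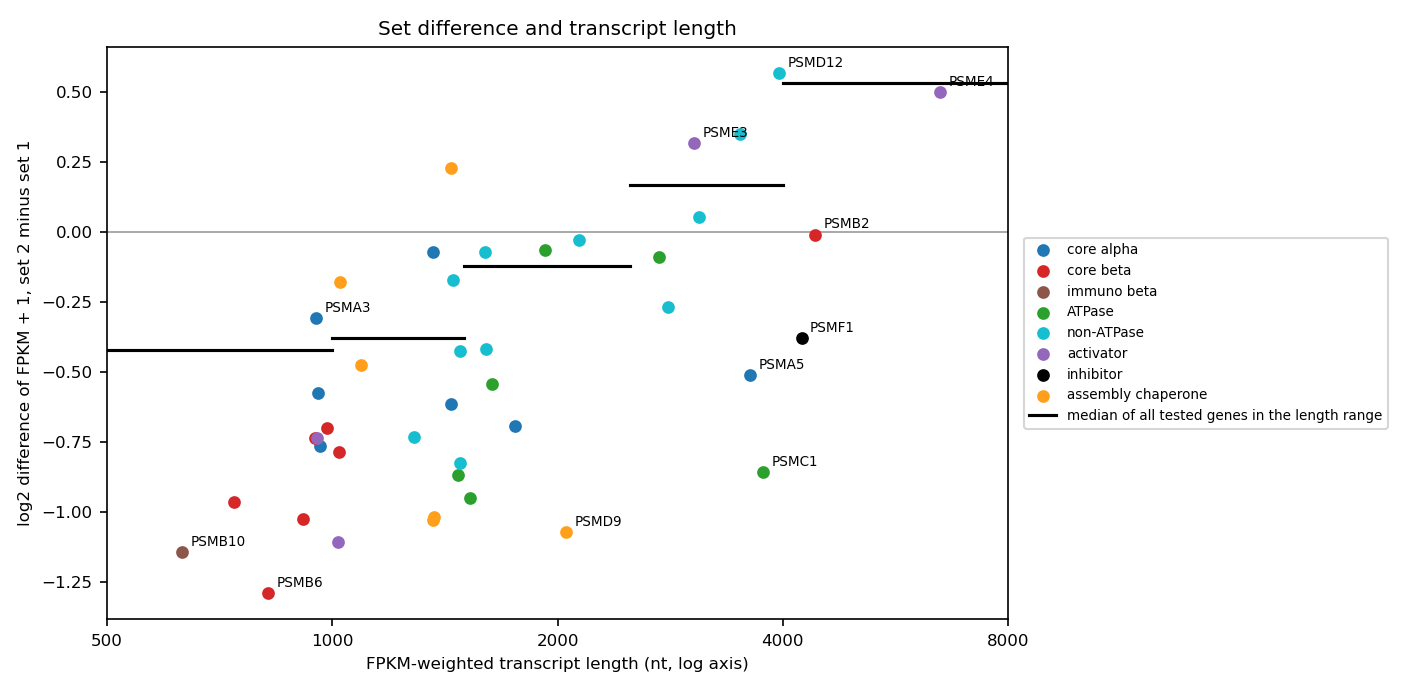
Set difference (log2 of FPKM plus 1, set 2 minus set 1) of the 43 tested proteasome genes against FPKM-weighted transcript length (log axis), coloured by role, with the median of all tested genes in each of 5 length ranges (black lines). PSMB6 and PSMB10, both short, lie lowest. At the long end PSME4 lies near the black line of its range and PSMD12 above that of its own.

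Markers moved with the sets as well. The 5 HEK293T markers summed to 45.1 to 62.8 FPKM in set 1 and 124 to 148 in set 2, with IRS4 at 8.61 to 16.0 and 65.4 to 80.3. The epithelial markers summed to 14.3 to 15.7 and 8.97 to 11.2, mostly from KRT8, with KRT5 at 0. The fibroblast markers summed to 1.43 to 5.94 and 1.98 to 2.27, with 3 of 5 under 1 everywhere, and the blood markers to 0.587 to 0.904 and 0.315 to 0.774, with PTPRC, CD3E and HBB at 0 in all 6 libraries. The part of these markers in the result was not tested, and in bulk RNA fewer cells of a type and less RNA per cell cannot be told apart.

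Set beside the promoter motifs, of 18 tested genes with TGACNNNGC or TGAGNNNGC 8 were called lower (median -0.45), and of 19 with neither 7 (median -0.42). PSME1 and PSME2, whose windows are printed above, fell, and PSMD12 and PSME4, which share TGACGCTGC, had positive differences that did not pass. Those windows were chosen after the values were seen, so these directions say nothing about the motif.

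Other genes of the pathway were read from lists, and 0 of their members passed in a trigger comparison in limma, and outside the heat shock list 0 had an unadjusted p under 0.05. Between the sets, where 22.5% of all genes were higher and 10.3% lower, 3 of 12 partners and assembly factors were higher and 3 lower, with a median of 0.04. UBE3C, a ubiquitin ligase of the proteasome, was higher by 0.99, UCHL5 and USP14, its deubiquitinases, by 0.62 and 0.56, while POMP, which matures the core, fell by 0.81, the receptor ADRM1 by 0.81 and ZFAND2A by 0.51. POMP had 162, 146 and 132 FPKM in set 1 and 76.6, 86.2 and 87.3 in set 2. In the NRF1 list 2 of 10 were higher, SEL1L (1.22) and the protease DDI2 (0.85), which activates NFE2L1, and 0 were lower, so that the share higher was near that of all genes. NFE2L1 itself stood at 19.5, 23.4 and 22.8 and then 25.7, 22.4 and 21.8, a difference of 0.09 (SE 0.15) that did not pass.

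Of 15 genes of ubiquitin and its shuttles 3 were higher, UBA6 (1.10), UBQLN1 (0.87) and FAF2 (0.48), and RPS27A (-0.66) and UFD1 (-0.64) were among those lower. Of 10 genes of antigen presentation and interferon ERAP1 (0.98) was among those higher and ISG15 (-1.34) among those lower. The chaperonin TRiC, another ring complex of many subunits, had 1 of 8 lower, CCT7 (-0.59), with a median of -0.21. Of 12 heat shock genes 0 passed between the sets (1 at an unadjusted p under 0.05) or in a trigger comparison. DNAJB1 had the lowest p of these against GFP, with 459 and 456 FPKM in GFP, 333 and 272 in BCL2L11 and 139 and 139 in TRIM9 libraries, a TRIM9 difference of -1.71 (SE 0.32, adjusted p = 0.9999 in limma). BAG3 (-1.23) and HSPA1B (-1.15) followed, and these 3 of 12 had an unadjusted p under 0.05, as did 175 of all 15183 genes and 0 of 43 proteasome genes.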

How the data were processed

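Poly-A RNA of 6 HEK293T libraries was analysed, 2 for each of 3 groups. STAR, StringTie 2.1.3 and the hg38 genome are named in the submitters' processing notes, which also list cutadapt 3.4 and DESeq2 1.20.0 without a role. Per the file headers the deposited transcript tables from StringTie hold FPKM and coverage, a signal of read depth averaged over bases, for 250719 transcripts, and no read counts. FPKM was a constant times coverage in each library. For some genes the authors' deposited comparison tables hold the fold as a ratio, the log2 of it, and p-value and q-value columns, with no tool stated in them. No 2 of the 6 libraries held identical values (0 of 15 pairs).

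FPKM was summed over the transcripts of a gene. Genes with at least 1 FPKM in at least 2 libraries were fitted as log2 of FPKM plus 1, a scale that understates changes of low genes, in limma 3.58.1 (R 4.3.3, trend, group only, all 6 libraries). The sets were fitted with a group term. Two-sided p-values were adjusted over all 15183 genes (Benjamini-Hochberg, threshold 0.05), and intervals are 95%. The labels do not say which cultures were separate, and p measures only the spread between these libraries. The fit was tested on simulated data with seeded log2 changes of 1 or 2. In the trigger comparisons it called none of these changed genes once the real set differences were included. Values were varied by scaling (TMM), pseudocount (0.1), filter (5 FPKM or none), trend, group term, library sets, covered bases, loci, the groups fitted and each library. Chosen after seeing the data were a fit on assembled chromosomes alone and the sets with TMM.

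The members and gene lists were chosen with earlier results of these data known. Named were the catalytic and immunoproteasome genes, PSMA8, PSMB11, the highest and lowest of each role, the 3 of lowest p per direction and those that passed. The deposited small RNA files were not used here, and a few genes of the pathway lists are not reported here. Genes named outside this rule, such as PSMB1, PSMC6, PSMD1 and PSMD11, were chosen after their values were seen.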

Additional observations from a re-analysis of the deposited data

How the results depend on the processing

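In the trigger comparisons 0 proteasome genes passed under every setting run. The library sets as a replicate block also gave 0 calls in each, with a lowest adjusted p of 0.825, 0.774 and 1 in limma and half-widths of 0.39 to 0.68, median 0.46. The labels do not say that a number marks a shared source, though set differences correlated between groups by 0.58, 0.49 and 0.83 over all genes. The block moved the count of all genes called from 1 to 1, 1 to 6 and 2 to 3. Leaving out 1 library, medians ranged from -0.27 to 0.24 for BCL2L11 against GFP and -0.39 to 0.28 for TRIM9 against GFP. Between triggers they ranged from -0.17 to 0.26. These fits had no term for the sets, so the set difference of the genes entered the medians when the sets became unequal between groups. Within set 1 and set 2 the medians were -0.03 and -0.02 for BCL2L11 against GFP. They were -0.12 and -0.06 for TRIM9 against GFP, and 0.16 and 0.02 between triggers.

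The same exclusions, in the fit without a set term, turned the sign of single genes. A gene that differs between the sets moves with them in this fit, so the ranges do not measure the trigger differences alone. PSMB6, for example, differed in BCL2L11 against GFP by 0.05 within set 1 and -0.02 within set 2. The ranges for BCL2L11 against GFP were -0.29 to 0.94 (PSMA4), -0.48 to 0.97 (PSMB10), -0.18 to 0.74 (PSMB5), -0.65 to 0.68 (PSMB6), -0.12 to 0.64 (PSMB7), -0.024 to 0.57 (PSMD3) and -0.71 to 0.23 (PSMG1). For TRIM9 against GFP they were -0.11 to 0.57 (PSMA4), -0.59 to 0.41 (PSMB10), -0.32 to 0.42 (PSMB5), -0.90 to 0.38 (PSMB6), -0.41 to 0.45 (PSMB7) and -0.37 to 0.71 (PSME1). Between triggers they were -0.39 to 1.06 (PSMB10), -0.23 to 0.69 (PSMB5), -0.39 to 0.94 (PSMB6), -0.19 to 0.67 (PSMB7), -0.25 to 0.90 (PSMC1), -0.33 to 0.0249 (PSMD10), -0.21 to 1.06 (PSMD9), -0.53 to 0.17 (PSME4) and -0.14 to 1.13 (PSMG4). With covered bases scaled to the library total, PSMA4 (-0.0195) and PSMB6 (-0.055) turned negative for BCL2L11 against GFP, and PSMB5 (-0.0123) and PSMB7 (-0.0241) for TRIM9 against GFP.

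Between the sets the median was -0.71 with TMM, -0.47 with no filter and -0.50 with covered bases, and -0.55 to -0.48 when 1 library was left out. The count of calls ran from 4 to 30 in the latter, 4 to 25 of them lower, and was 0 with no filter, where 39154 genes were tested. The other settings gave 21 to 27. With 1 library left out its group has a single one. The group term fits that one exactly, so the remaining groups alone give the set difference, whichever library of the pair is left out. In the trigger comparisons the single library is assumed to vary like the others. The files hold no read counts, so what depth limits was not measured.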

Other observations

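Transcript models within a gene varied beyond the gene sums. The leading model of PSMA6 held 74.8%, 1.41% and 55.5% of its FPKM in GFP, BCL2L11 and TRIM9 of set 1 and 78.7%, 4.28% and 6.44% in set 2. The order of the groups was the same in both sets, GFP above TRIM9 above BCL2L11, and the difference was not tested. This gene was picked after its values were seen, and the models overlap, so that their shares rest on how reads were assigned. A model of PSMC1 of 1389 nt held 37.2% of that gene in the BCL2L11 library of set 1 and 0% to 7.81% elsewhere.

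Among pseudogenes PSMC1P1, a copy of the ATPase gene PSMC1, was listed at 4.63 to 9.26 FPKM, with 9.26, 6.73 and 8.45 in set 1 and 4.63, 5.32 and 5.15 in set 2, and reads of near-identical copies cannot be told apart from those of PSMC1 here. The antisense gene PSMA3-AS1 stood at 13.3 to 19.7, beside 103 to 171 for PSMA3, and PSMG3-AS1 at 0.437 to 2.19. Of the 48 genes 8 lay on chromosome 14 and 7 on chromosome 17.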
